A study of Homo sapiens with 12 samples.

Results

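The aldo-keto reductases of subfamilies AKR1B and AKR1C are described here in 2 human cancer cell lines kept with or without mouse muscle progenitor cells. The members were all probe sets of a human oligonucleotide array (HG-U133 Plus 2) whose symbol in the authors' table was AKR1B1, AKR1B10, AKR1C1, AKR1C2, AKR1C3 or AKR1C4. They came to 12 probe sets for 6 genes, of 54613 probe sets on the array that were not controls, and 0 of them named more than 1 of the 6 genes. They were chosen by gene symbol, with the signals and log2 differences of these same arrays already known, so any of the contrasts given below may have led to the choice. Their values are therefore a description, and no p-value of a single member is given.

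In all 12 arrays were hybridised, 3 in each of 4 groups. The groups were 786-O kept with myoblasts, 786-O kept alone, PC3 kept with myoblasts, and PC3 kept alone. 786-O is an established human renal carcinoma line and PC3 an established human prostate carcinoma line, and each is a single line. For co-culture, 30000 cancer cells were seeded for 6 h in the lower well of a transwell plate, in RPMI1640 medium (786-O) or F-12K medium (PC3), and 10000 myoblasts were then placed in the upper chamber for 12 h. The myoblasts were primary cells from the limbs of 5-day-old GFP transgenic C57BL/6 mice, and the labels also call the mixture 1:1, which differs from the seeded numbers. RNA was taken at 12 h and had an integrity number of 10 per the labels. The lines differ in medium as well as in origin, so line and medium cannot be told apart. No label says that the 3 repeats of a group were separate cultures.

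Aldo-keto reductases are soluble enzymes that use NADPH to reduce aldehydes and ketones to alcohols. AKR1B1 is aldose reductase, which turns glucose into sorbitol in the first step of the polyol pathway and is known in kidney, where sorbitol serves as an osmolyte. AKR1B10 is a close relative that also reduces retinal. The AKR1C genes lie in a cluster on chromosome 10 and encode hydroxysteroid dehydrogenases. AKR1C1 inactivates progesterone, AKR1C2 inactivates dihydrotestosterone, and AKR1C3 makes testosterone from androstenedione and also acts as prostaglandin F synthase. AKR1C4 is the form found mainly in liver. AKR1B10 and the AKR1C genes are known targets of NRF2, the transcription factor of the antioxidant response.

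The sequences just upstream of 3 AKR1C genes are shown because these genes had differences of the same sign with co-culture, and because they show how alike the copies are. They are the 250 bases before each annotated start from RefSeq (GRCh38.p14), 5′ to 3′ on the strand of the gene. Capitals mark ATTGG, which is the CCAAT box read from the other strand.
AKR1C1, chr10:4963165-4963414, plus strand: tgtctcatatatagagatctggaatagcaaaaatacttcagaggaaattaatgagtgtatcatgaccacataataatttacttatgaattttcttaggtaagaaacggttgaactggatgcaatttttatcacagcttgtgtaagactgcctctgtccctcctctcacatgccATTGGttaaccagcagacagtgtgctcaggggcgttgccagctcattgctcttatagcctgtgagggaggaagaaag
AKR1C2, chr10:5003858-5004107, minus strand: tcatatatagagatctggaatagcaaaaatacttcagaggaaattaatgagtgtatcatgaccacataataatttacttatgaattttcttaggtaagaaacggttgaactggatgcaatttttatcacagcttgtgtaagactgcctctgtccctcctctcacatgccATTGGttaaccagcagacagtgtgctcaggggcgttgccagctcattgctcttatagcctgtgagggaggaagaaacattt
AKR1C3, window 1, chr10:5048531-5048780, plus strand: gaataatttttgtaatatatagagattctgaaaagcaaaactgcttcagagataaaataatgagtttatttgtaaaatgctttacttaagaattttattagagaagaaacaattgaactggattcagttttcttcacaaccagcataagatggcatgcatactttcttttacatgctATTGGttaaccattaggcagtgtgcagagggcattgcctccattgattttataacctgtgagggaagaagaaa
AKR1C3, window 2, chr10:5094164-5094413, plus strand: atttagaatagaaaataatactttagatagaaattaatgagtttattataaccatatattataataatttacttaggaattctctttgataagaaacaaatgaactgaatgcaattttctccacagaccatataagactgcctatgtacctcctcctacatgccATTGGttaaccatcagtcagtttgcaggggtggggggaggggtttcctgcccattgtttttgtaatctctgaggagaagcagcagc
In a pairwise alignment 245 of 254 columns were identical between AKR1C1 and AKR1C2 (96.5%), against 72.4% and 69.9% between AKR1C1 and the windows of AKR1C3. AKR1C1 and AKR1C4 shared 64% of columns. The 5 genes found in the table had 7 windows, and AKR1B10 had no entry. The CCAAT box (CCAAT, both strands) stood 77 bases before the start of AKR1C1, 81 before AKR1C2, and 73 and 86 before the starts of AKR1C3. Of 35116 windows of the same length 32% held it. The core of the antioxidant response element (TGACNNNGC, both strands) matched in 0 of the 7 windows, against 10.9% of all windows. The AP-1 motif (TGANTCA, both strands) matched in 0 of the 7, against 6.57% of all windows. These counts say only which letters lie in these windows.

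The probe sets for AKR1C1 and AKR1C2 cannot be taken as readouts of single genes. All 4 of them that gave signal have the suffix _x_at, which the array's maker uses for probes that also match other transcripts. The alignments in the authors' table placed 6 of the 8 probe sets of these genes on both strands of chromosome 10. AKR1C1 lies on the plus strand and AKR1C2 on the minus strand. AKR1C3 and AKR1C4 also lie on the plus strand, so the strands do not tell which genes these sites are. The probe set of AKR1B1 was placed at 2 sites of the genome and that of AKR1B10 at 3. The probe sets of AKR1C3 and AKR1C4 were each placed at 1 site. The build of these alignments was not stated, and their positions are not used here.

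Tests were made on probe sets brighter than the median probe set, by the mean of 12 log2 signals, which held for 7 of the 12 members, for 5 genes. The other 5 were AKR1C1 1562102_at and 217626_at, AKR1C2 1560098_at and 244266_at, and AKR1C4 210558_at. On all 12 arrays their signals lay between 4.23 and 4.86, where the dimmest probe sets of these arrays lie. AKR1C4, the liver form, thus gave no signal above that level in either line. Members that passed did so on their own level, and the 7 are not the whole family.

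The muscle progenitor markers MYOD1, MYF5, MYOG, PAX7 and DES stayed under a signal of 16 on all 12 arrays, and their summed signal was 23.2 to 25.1 in 786-O with myoblasts, 23.0 to 25.1 in 786-O alone, 23.1 to 23.3 in PC3 with myoblasts and 22.8 to 23.0 in PC3 alone. These are human probe sets, and how well they would read mouse transcripts was not tested. Of the 5 fibroblast markers COL1A1 carried the signal, with summed signals of 177 to 317 in 786-O with myoblasts, 126 to 147 in 786-O alone, 756 to 920 in PC3 with myoblasts and 457 to 568 in PC3 alone. COL3A1 reached 28.6 at most, and COL1A2, DCN and LUM stayed under 16. Of 3 endothelial markers PECAM1 was high in PC3, at a mean of 4917 with myoblasts and 2899 alone, while CDH5 and KDR were under 16 on all arrays. Of the leukocyte markers found, PTPRC stayed under 16 and CSF1R reached 17.3 at most. The part of these markers in the results was not tested. For the labels, PAX8 averaged 1357 in 786-O with myoblasts and 762 in 786-O alone, against 15.7 and 15.9 in the PC3 groups. HOXB13 averaged 359 in PC3 with myoblasts and 299 in PC3 alone, against 4.32 and 4.26 in the 786-O groups. KLK3, a prostate marker, was under 16 in both lines, while CA9, listed as a renal marker, was read in PC3. Median signals ran from 5.46 to 5.73 over the arrays. Repeat 2 of 786-O with myoblasts had an ACTB 3′ to 5′ signal ratio of 7.22, against 3.08 to 4.24 on the other 11 arrays. Without it the 786-O log2 differences of the 7 tested members were 0.18 for AKR1B1, 0.55 for AKR1B10, 0.40 and 0.63 for the AKR1C1 sets 204151_x_at and 216594_x_at, 0.96 and 0.33 for the AKR1C2 sets 211653_x_at and 209699_x_at, and 1.10 for AKR1C3, with the same members called as with it.

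AKR1B1, aldose reductase, had the largest difference between the lines of the 7 tested members. Its signal was 19896, 20745 and 22806 in 786-O with myoblasts and 18751, 19144 and 18617 in 786-O alone. In PC3 it was 142, 107 and 47.4 with myoblasts and 136, 171 and 146 alone. Every 786-O array was therefore more than 100-fold above every PC3 array. Alone, the log2 difference of 786-O over PC3 was 6.97 ± 0.298 (SE, 3 arrays each), a 125.3-fold higher signal. In these bulk samples fewer expressing cells and less RNA per cell cannot be told apart. With myoblasts on both sides it was 7.88 ± 0.298, or 235.6-fold. By size of the difference between the lines alone AKR1B1 stood at rank 495 of 27306 probe sets tested, and 1.81% had a larger one.

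AKR1B1 was called in neither response to co-culture. In 786-O the 3 arrays with myoblasts were all above the 3 alone, but the log2 difference was only 0.16 ± 0.298 and was not called. That SE pools the spread of all 4 groups, which was unequal. The SD of the log2 signals was 0.101 and 0.0209 in 786-O with myoblasts and alone, against 0.822 and 0.168 in PC3. The size of the SE is thus not the spread of the 786-O arrays. A fit to the 786-O arrays alone did not call AKR1B1 either. In PC3 the log2 difference was -0.75 ± 0.298, also not called, and the groups overlapped. It rested on repeat 3 with myoblasts, the lowest array at 47.4, and was -0.29 without it. The coefficient of variation of AKR1B1 in PC3 with myoblasts was 48.5%, and 97.2% of probe sets of like signal (within 1.5-fold) had a smaller one.

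**Figure D1:**
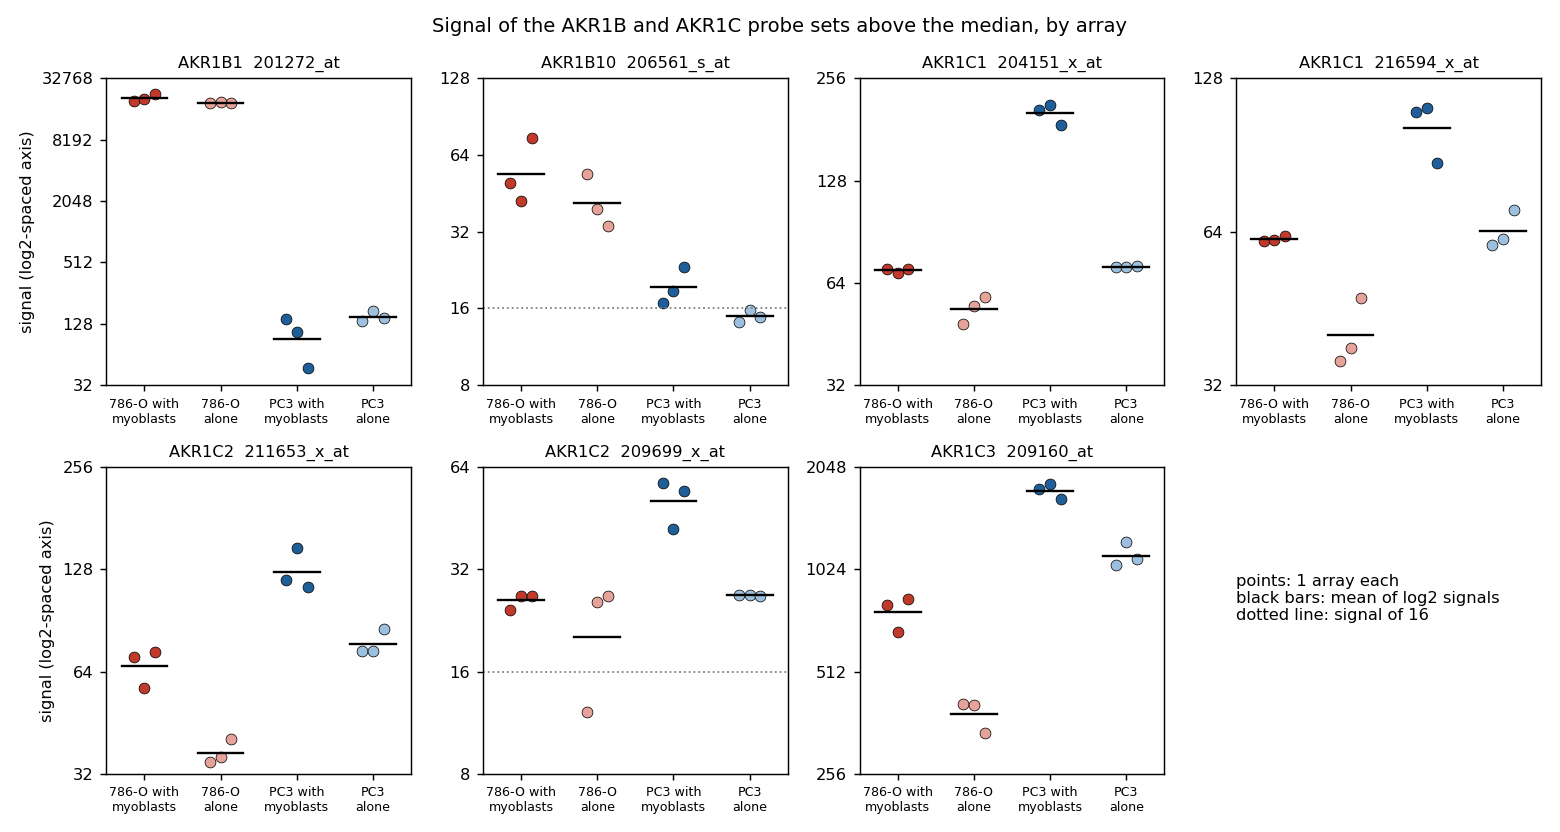
Each panel plots the deposited signal (log2-spaced axis) of 1 tested AKR probe set on the 12 arrays, by group; points are single arrays, black bars the mean of the log2 signals, and the dotted line a signal of 16. AKR1B1 was between 18617 and 22806 in 786-O and at most 171 in PC3, while the AKR1C sets were highest in PC3 with myoblasts.

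AKR1B10, the relative that also reduces retinal, gave 49.8, 42.2 and 74.4 in 786-O with myoblasts and 53.9, 39.2 and 33.7 in 786-O alone. In PC3 it gave 16.8, 18.7 and 23.2 with myoblasts and 14.1, 15.8 and 14.8 alone, where all 3 arrays were under 16, the signal taken as the floor. The 786-O arrays with and without myoblasts overlapped, with a log2 difference of 0.38 ± 0.239 (SE, 3 arrays each). The PC3 arrays did not overlap, and the signal was at least 1.21-fold higher with myoblasts, measured against the floor. Neither difference was called. Between the lines AKR1B10 was higher in 786-O, at least 2.59-fold alone and 2.78-fold with myoblasts. Both of these were called.

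AKR1C3, the testosterone and prostaglandin F forming enzyme, rose in both lines, on a probe set placed at 1 site. It read 804, 669 and 837 in 786-O with myoblasts and 410, 409 and 337 in 786-O alone. In PC3 it read 1768, 1828 and 1650 with myoblasts and 1051, 1229 and 1096 alone. In each line all 3 arrays with myoblasts lay above all 3 alone, and PC3 alone lay above 786-O with myoblasts. The log2 difference in 786-O was 1.00 ± 0.114 (SE, 3 arrays each) and the rise 1.997-fold. In PC3 it was 0.64 ± 0.114, a 1.556-fold rise. The 786-O response minus the PC3 response was 0.36 ± 0.162 on the log2 scale and was not called.

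The first AKR1C1 probe set, 204151_x_at, rose in PC3 with little spread. Its signal was 207, 213 and 186 in PC3 with myoblasts and 71.3, 71.2 and 71.7 in PC3 alone. In 786-O it was 70.2, 68.6 and 70.5 with myoblasts and 48.3, 54.7 and 58.0 alone. The groups did not overlap in either line, and 786-O with myoblasts came up to the signal of PC3 alone. The log2 difference in PC3 was 1.5 ± 0.125 (SE, 3 arrays each), a 2.829-fold rise, and 0.886% of the probe sets tested changed more in PC3. In 786-O it was 0.38 ± 0.125 and was not called. The 786-O response minus the PC3 response was -1.12 ± 0.176, the only member difference of responses that was called.

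The second AKR1C1 probe set, 216594_x_at, did not repeat that difference between the lines. It gave 61.4, 61.7 and 62.9 in 786-O with myoblasts and 35.7, 37.9 and 47.5 in 786-O alone. In PC3 it gave 110, 112 and 87.3 with myoblasts and 60.2, 61.9 and 70.7 alone. The log2 differences were 0.63 ± 0.159 in 786-O and 0.68 ± 0.159 in PC3 (SE, 3 arrays each), with no overlap in either. Both were called. The 786-O response minus the PC3 response was -0.05 ± 0.224 and was not called. The probe sets annotated to AKR1C1 therefore disagree on whether the lines responded unequally, and no statement on the gene is made from either alone. The calls of 216594_x_at were also not firm. That in 786-O was lost on leaving out repeat 1 of 786-O with myoblasts, repeats 1 or 2 of 786-O alone, repeat 1 of PC3 with myoblasts or repeat 2 of PC3 alone. That in PC3 was lost on leaving out repeat 1 of 786-O with myoblasts, repeats 1 or 2 of 786-O alone, repeats 1 or 2 of PC3 with myoblasts, or any repeat of PC3 alone.

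AKR1C2, which inactivates dihydrotestosterone, was read by 2 tested probe sets. The first, 211653_x_at, gave 70.7, 57.3 and 73.0 in 786-O with myoblasts and 34.8, 35.8 and 40.6 in 786-O alone. In PC3 it gave 119, 148 and 114 with myoblasts and 73.4, 73.4 and 85.2 alone. The groups did not overlap in either line. It rose 1.804-fold in 786-O (log2 difference 0.85 ± 0.16, SE, 3 arrays each) and 1.634-fold in PC3 (0.71 ± 0.16). The PC3 call was lost on leaving out repeats 1 or 2 of 786-O alone, any repeat of PC3 with myoblasts or any repeat of PC3 alone.

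The second, 209699_x_at, gave 24.3, 26.8 and 26.7 in 786-O with myoblasts and 12.2, 25.6 and 26.8 in 786-O alone. In PC3 it gave 57.5, 42.0 and 54.5 with myoblasts and 26.9, 26.8 and 26.8 alone. The 786-O groups overlapped, with repeat 1 alone as the low array, and the PC3 groups did not. The log2 difference was 0.35 ± 0.265 in 786-O and 0.92 ± 0.265 in PC3 (SE, 3 arrays each), and neither was called. On leaving out repeat 1 of 786-O alone the PC3 difference was called, with the same value. The 786-O difference was then -0.013, so it rested on that array, which read under the floor of 16.

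**Figure D2:**
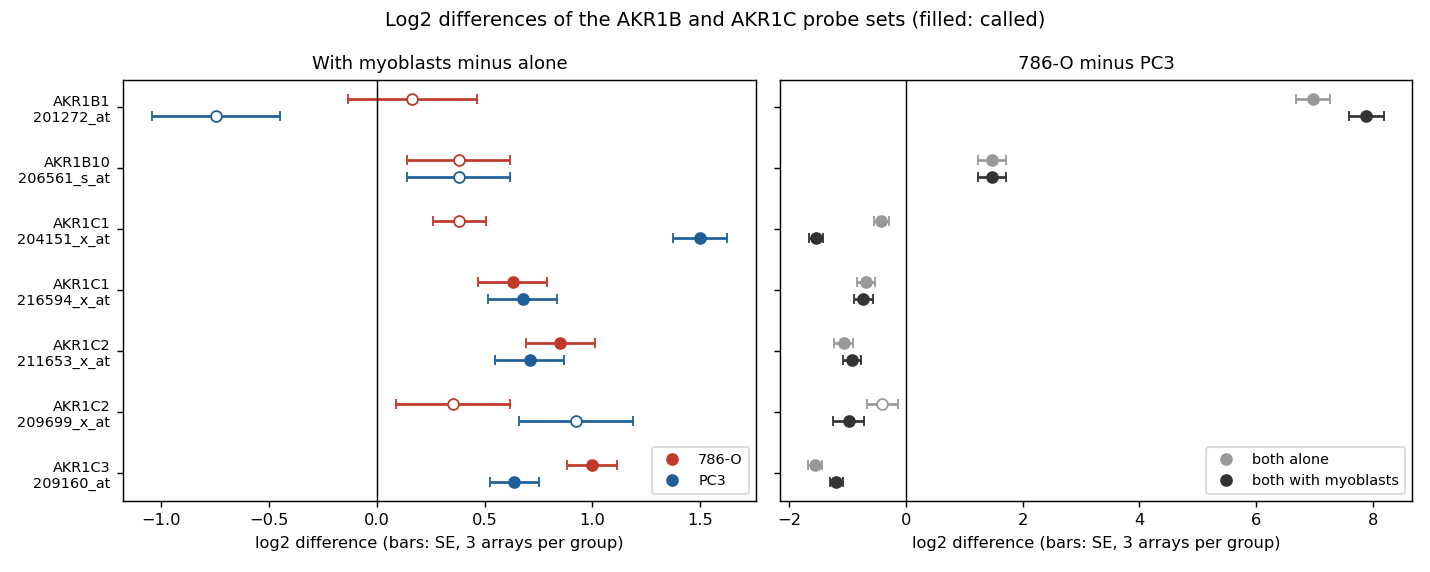
Points give the log2 difference of each tested AKR probe set, with bars of 1 SE (3 arrays per group): co-culture over alone in 786-O and PC3 on the left, 786-O over PC3 on the right; filled points were called at an adjusted p under 0.05. The AKR1C sets lie above 0 in both lines on the left and below 0 on the right, where AKR1B1 stands at 6.97 and 7.88.

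Of the 7 tested members 3 were called higher and 0 lower in 786-O with myoblasts, against 4.87% of all 27306 tested probe sets called higher, 3.2% called lower and 8.07% in all. In PC3 with myoblasts 4 were called higher and 0 lower, against 1.98% called higher, 2% called lower and 3.97% in all. For the difference of responses 1 of 7 was called, and it was negative, against 4.09% of all tested probe sets (2.3% positive and 1.79% negative). The members were chosen with these contrasts known, and nothing is read from the shares. The median log2 difference of the 7 was 0.38 in 786-O and 0.68 in PC3, against -0.0074 and -0.0081 over all tested probe sets. Groups did not overlap for 5 of 7 members in 786-O and 6 of 7 in PC3, where 32.1% and 25.3% of all tested probe sets did not. The 3 probe sets called higher in both lines were AKR1C1 216594_x_at, AKR1C2 211653_x_at and AKR1C3 209160_at, where 0.304% of all tested probe sets were. These all belong to the AKR1C cluster, and at least the AKR1C1 and AKR1C2 sets may read the same transcripts. A limma fit to the 786-O arrays alone called 0 of 7 members and 149 of 27306 probe sets, with the same log2 differences. The calls in 786-O thus rest on a spread estimated from all 4 groups. In the fit to the 786-O arrays alone 5 of the 7 had an unadjusted p under 0.05. The share of all tested probe sets at that threshold is not given, so nothing is read from this count.

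Between the lines the subfamilies stood on opposite sides. With both lines alone, AKR1B1 and AKR1B10 were called higher in 786-O and 4 of the 5 AKR1C sets were called higher in PC3, against 34.2% of all tested probe sets called higher in 786-O and 33.8% called higher in PC3 (68.1% in all). With myoblasts on both sides 2 were called higher in 786-O and 5 in PC3, against 36.1% and 34.6% (70.7% in all). AKR1C3 was lower in 786-O by 1.55 ± 0.114 on the log2 scale alone and by 1.19 ± 0.114 with myoblasts (SE, 3 arrays each). AKR1C2 211653_x_at had a log2 difference of -1.06 ± 0.16 alone and -0.92 ± 0.16 with myoblasts. For AKR1C1 204151_x_at it was -0.42 ± 0.125 alone and -1.53 ± 0.125 with myoblasts. All 7 sets had no overlap between the lines in either condition, as had 80.1% of tested probe sets alone and 72.7% with myoblasts, though for 209699_x_at alone the highest 786-O array and the lowest PC3 array both read 26.8. These comparisons share their arrays with the responses above and are no separate evidence on them.

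**Figure D3:**
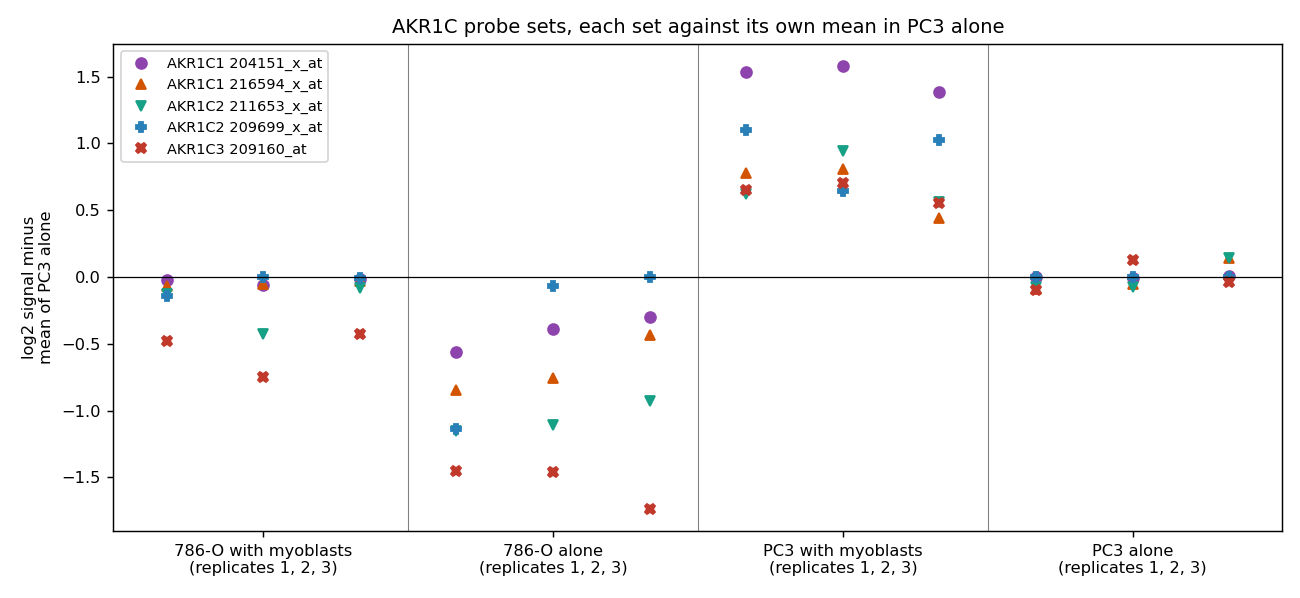
Symbols give the log2 signal of each AKR1C probe set on each array minus the mean of that set in PC3 alone (vertical axis), by group and repeat; the zero line is PC3 alone. Sets 204151_x_at, 216594_x_at and 209699_x_at in 786-O with myoblasts lie close to the zero line, and AKR1C3 in 786-O with myoblasts lies below it.

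The AKR1C sets were correlated over the arrays to unequal degrees. With the mean of each line taken out, the log2 signals of AKR1C3 correlated over the 12 arrays with those of AKR1C2 211653_x_at at r = 0.928 and of AKR1C1 216594_x_at at 0.846. AKR1C1 216594_x_at and AKR1C2 211653_x_at correlated at 0.952. The lowest values among the AKR1C sets were 0.542 for 209699_x_at with AKR1C3, 0.642 for 209699_x_at with 211653_x_at and 0.696 for 204151_x_at with AKR1C3. AKR1B1 correlated with AKR1C3 at -0.134 and AKR1B10 at 0.699, above the lowest of these. The 12 points share their groups, so that any genes that moved with co-culture correlate, and probe sets that read the same transcript do so too. The genes most like AKR1C3 on this measure were CXCL1 (r = 0.966), a neutrophil-attracting chemokine, and VMP1 (0.964), a membrane protein of autophagy. For AKR1C1 204151_x_at they were SCG5 (0.982), a secretory granule chaperone, and ACKR3 (0.977), a scavenging receptor of the chemokine CXCL12. For AKR1C2 they were TMEM120A (0.952) and VMP1 (0.951). For AKR1B10 they were TMEM92 (0.907) and FBXO41 (0.904), and for AKR1B1 HSD17B2 (0.916), which inactivates estradiol and testosterone, and CWF19L1 (0.906). HSD17B2 was under 16 on all 6 arrays of 786-O, so its likeness rests on the 6 PC3 arrays, where AKR1B1 had 1 low array at 47.4. Without taking out the line means, the most like were TNFRSF10D (0.997) and GAPVD1 (0.997) for AKR1B1, and RIPK4 (0.989) and IGDCC4 (0.981) for AKR1C3. For the other 3 they were PPARGC1A (0.982) and ARMH3 (0.981) for AKR1B10, DRC10 (0.972) and INSL4 (0.971) for AKR1C1, and DDB2 (0.96) and RIPK4 (0.96) for AKR1C2. Of these, TNFRSF10D and PPARGC1A reached 16 on 0 of the 6 PC3 arrays, and DRC10 and INSL4 on 0 of the 6 arrays of 786-O and on 2 and 3 of the PC3 arrays.

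The pathways around these enzymes were followed in 8 gene lists, of which 91 genes were tested. In 786-O with myoblasts 8 genes were called higher and 1 lower (9.89% of them, against 8.07% of all tested probe sets). In PC3 with myoblasts 3 were called higher and 1 lower (4.4%, against 3.97%). All adjusted p-values below are from limma with Benjamini-Hochberg adjustment over all tested probe sets. Counts at an unadjusted p under 0.05 are given without the share of all tested probe sets. Of the other aldo-keto reductases, AKR1A1 and its relatives, 0 of 3 were called in either response (unadjusted p under 0.05 for 1 in 786-O and 0 in PC3).

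The NRF2 list holds other targets of the factor known to act on the AKR1C genes. Of 17 tested genes 3 rose and 1 fell in 786-O with myoblasts, with a median log2 difference of -0.0074, and 0 of 17 were called in PC3, with a median of -0.0165 (6 had an unadjusted p under 0.05). SLC7A11, the cystine importer, gave 1966, 2161 and 2143 in 786-O with myoblasts and 1464, 1546 and 1385 in 786-O alone, a log2 rise of 0.51 ± 0.0715 (adjusted p = 0.0028). In PC3 it gave 1540, 1555 and 1723 with myoblasts and 1724, 1641 and 1657 alone, and the responses differed by 0.57 on the log2 scale (adjusted p = 0.0121). ABCC3, an export pump for conjugated compounds, gave 354.7, 819.6 and 350.8 in 786-O with myoblasts and 241.5, 177.1 and 148.6 alone, a log2 rise of 1.34 ± 0.29 (adjusted p = 0.0219). Its highest array was the one with the high ACTB ratio, without which the log2 rise was 0.93, and the call was lost without repeat 2 or 3 of 786-O alone. FTH1, the ferritin heavy chain, rose by 0.12 on the log2 scale (adjusted p = 0.0402), a call lost on 10 of 12 omissions of an array. GCLC, the catalytic subunit of glutathione synthesis, named after its values were seen, fell by 0.28 in 786-O (adjusted p = 0.0476), likewise lost on 10 of 12 omissions.

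Few genes of sugar alcohol and NADPH metabolism were called. Of 6 tested genes of the polyol pathway and osmotic response, SLC6A6, the taurine transporter, was called in 786-O, with a log2 rise of 0.23 ± 0.0429 (adjusted p = 0.0114), lost without repeat 3 of 786-O alone. In PC3 0 of 6 were called (1 had an unadjusted p under 0.05). Of 5 tested genes of NADPH supply, IDH1, the cytosolic isocitrate dehydrogenase, was called in PC3, with a log2 rise of 0.21 (adjusted p = 0.0133), lost without repeat 3 of PC3 with myoblasts. In 786-O 0 of 5 were called (3 had an unadjusted p under 0.05). Of 15 other carbonyl and aldehyde enzymes 0 were called in either response (unadjusted p under 0.05 for 6 in 786-O and 2 in PC3).

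The steroid list gave 1 call in each line among 17 tested genes. HSD3B7, which acts in bile acid synthesis, gave 527, 464 and 632 in 786-O with myoblasts and 355, 317 and 301 in 786-O alone, a log2 rise of 0.73 ± 0.136 (adjusted p = 0.0114), lost without repeat 3 of 786-O alone. SRD5A3, a polyprenol reductase of the steroid 5-alpha-reductase family, gave 1336, 1299 and 1386 in PC3 with myoblasts and 2092, 2012 and 1956 in PC3 alone. Its log2 difference was -0.59 ± 0.0834 (adjusted p = 0.00198), and this fall kept its call under all alternatives in which it was tested.

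The prostaglandin list holds PTGFR, the receptor for the prostaglandin F that AKR1C3 can make. PTGFR gave 72.1, 57.4 and 47.2 in PC3 with myoblasts and 16.4, 20.1 and 10.6 in PC3 alone, with no overlap. Measured against the floor of 16 it was at least 3.63-fold higher with myoblasts (adjusted p = 0.000548). That p-value uses a spread estimated from all 4 groups, and a limma fit to the PC3 arrays alone gave an adjusted p of 0.0195. In 786-O it stayed between 4.64 and 4.75 on all 6 arrays, at the level of the dimmest probe sets. PTGR1, which inactivates leukotrienes and prostaglandins, rose by 0.26 ± 0.0651 on the log2 scale in 786-O (adjusted p = 0.0388), a call lost on 10 of 12 omissions of an array. These were the calls among 13 tested genes of this list. PTGES, named after its values were seen, was not called in PC3, though its groups did not overlap. It gave 7568, 6857 and 7163 in PC3 with myoblasts and 1504, 1534 and 1673 in PC3 alone. The log2 difference was 2.20 ± 0.547 (adjusted p = 0.0507), with an SE that pools all 4 groups. In 786-O PTGES gave 37.9, 6.8 and 33.5 with myoblasts and 7.9, 10.8 and 20.3 alone.

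Of 15 tested retinoid genes 2 rose in 786-O and 1 rose in PC3. RETSAT, retinol saturase, rose by 0.30 on the log2 scale in 786-O (adjusted p = 0.0481), lost on 10 of 12 omissions. CRABP1, a cellular retinoic acid binding protein, gave 1981, 2088 and 1860 in PC3 with myoblasts and 1331, 1298 and 1141 in PC3 alone, a log2 rise of 0.66 (adjusted p = 0.0108). That call was lost without repeat 1 of PC3 with myoblasts or repeat 3 of PC3 alone. A fit to the 786-O arrays alone called 0 of the 91 pathway genes in 786-O, where 22 had an unadjusted p under 0.05.

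**Figure D4:**
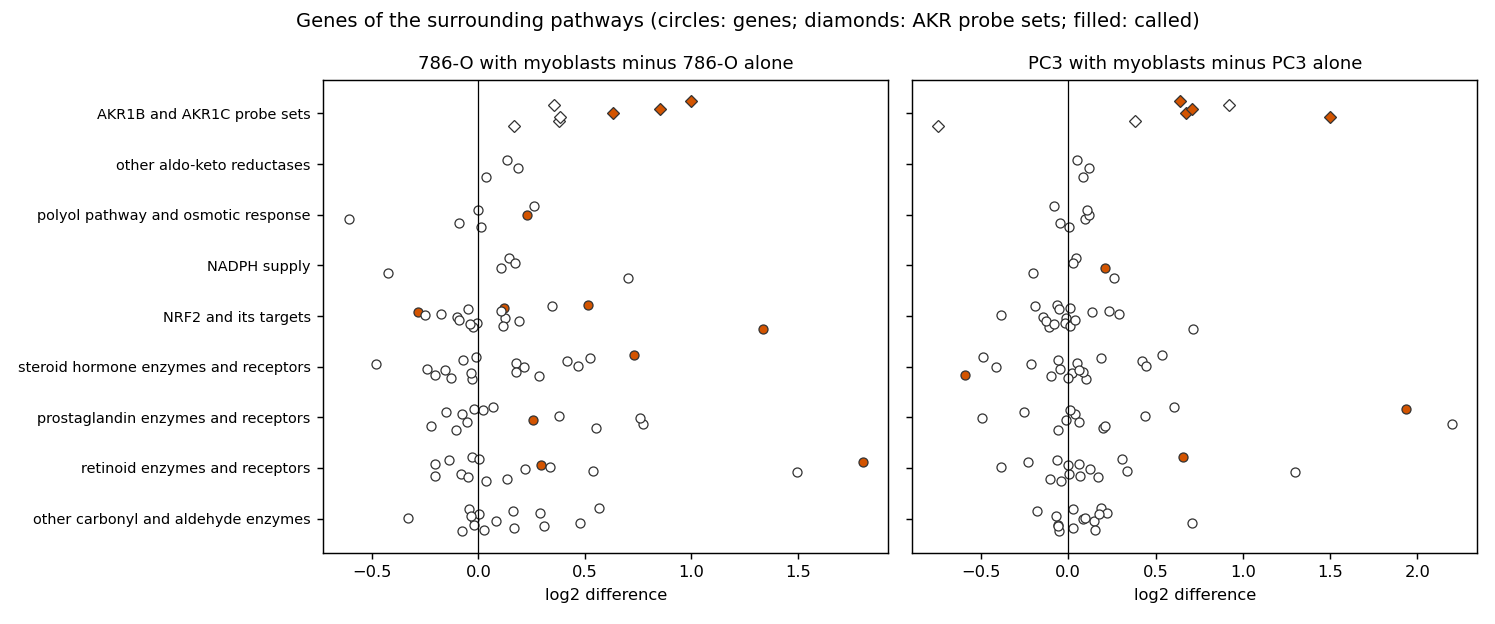
Horizontal positions are log2 differences of co-culture over alone, in 786-O on the left and PC3 on the right; circles are the tested pathway genes by list, diamonds the 7 AKR probe sets, and filled symbols were called. PTGFR is the filled prostaglandin circle in PC3, where its fitted position has no exact meaning because PC3 alone averaged under 16 (at least 3.63-fold).

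Between the lines alone 27 pathway genes were called higher in 786-O and 46 lower (80.2%, against 68.1% of all tested probe sets). With myoblasts on both sides the counts were 26 and 42 (74.7%, against 70.7%). AKR1A1, aldehyde reductase, was higher in 786-O by 0.85 ± 0.0791 on the log2 scale alone (adjusted p = 1.72e-06). In the polyol list KHK, the ketohexokinase that handles fructose, was at least 7.25-fold lower in 786-O alone, measured against the floor of 16 (adjusted p = 1.78e-08), although AKR1B1 at the head of the same pathway was higher. The gene SORD, which turns sorbitol into fructose, named after its values were seen, had a log2 difference of 0.16 (adjusted p = 0.0507) and was not called. ALDH1A1, a retinal dehydrogenase, was at least 340.9-fold higher in 786-O alone (adjusted p = 2.93e-14), while CRABP1 was at least 78.4-fold lower (adjusted p = 1.92e-13).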

How the data were processed

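The authors deposited 1 linear signal intensity for each of 54675 probe sets and 12 arrays, in 2 tables with equal values. MAS5 is the tool that the submitters' processing notes name, with no version; background correction and normalization are not given in the sources used here. Arrays give no depth, and their number limits the precision. Signals were taken to log2 with no added constant, 62 control probe sets were left out, and the 27306 of 54613 probe sets above the median mean log2 signal (2.653) entered 1 limma model (version 3.58.1, R 4.3.3) of 4 group means with an intensity trend. Log2 differences carry the SE of that fit, p-values took a Benjamini-Hochberg adjustment over all tested probe sets, tests were two-sided, and an adjusted p under 0.05 was called. With no statement that repeats were separate cultures, a p-value covers just the spread of these samples, which may be technical.

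The members and the gene lists were chosen with earlier results of these data known. All member probe sets are named, and of each pathway list up to 3 called genes with the smallest p; some genes that this rule selects, though counted, are not reported here; for each tested member the 2 genes with the highest Pearson r are given. A gene of a list was read from its brightest tested probe set with 1 symbol. The floor, a signal of 16, was chosen after the values were seen: against a group mean under it a fold is a lower bound. The fit was tested on simulated data. Alternatives were other filters, normalizations and variance models, an added constant of 16, 1 probe set per gene, only the arrays compared, a replicate block, a threshold of 0.01 and the omission of each array. Those for the pathway genes were added after seeing the data. Promoter windows are from RefSeq GRCh38.p14. Python 3.11.15 and matplotlib 3.10.9 drew the figures.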

Additional observations from a re-analysis of the deposited data

Results flagged for a closer look

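For AKR1C1 204151_x_at the 786-O response minus the PC3 response was -1.117 on the log2 scale, and it was -0.05 ± 0.224 for the other tested AKR1C1 probe set. The members were chosen with these differences known, so both are descriptions and not tests. The gene lists were also chosen with earlier results of these data known, which limits the adjusted p-values that follow in the same way. Among the pathway genes described, SLC7A11 had a difference of 0.5745 by limma with Benjamini-Hochberg adjustment (adjusted p = 0.0121), with a response of 0.51 in 786-O. For PTGFR the fit gave -1.956 (adjusted p = 0.00832), which is not a measured size: its 786-O arrays all lay between 4.64 and 4.75, where no response could be measured, and PC3 alone averaged under the floor of 16.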

How the results depend on the processing

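Of 728 values of single member probe sets under the alternatives, 686 stayed called or uncalled, 38 lost a call, 4 gained one and 0 called values changed sign. Uncalled values could change sign. That of AKR1C2 209699_x_at in 786-O ran from -0.013 to 0.56. The 3 called members in 786-O became 2 without a filter and with quantile normalization, and 4 without the intensity trend. They became 1 above the 75th percentile of signal (where by construction 2 members are tested), 0 with only the arrays compared and 1 at an adjusted p under 0.01. The 4 in PC3 became 2 without a filter, 1 above the 75th percentile, 2 with the replicate block and 2 at 0.01. They became 5 with 16 added and 3 with only the arrays compared. With 1 probe set per gene 2 of 5 were called in 786-O and 3 of 5 in PC3. Above the 75th percentile the difference of responses had 0, and each comparison of the lines had 2. The comparison of the lines alone had 5 at 0.01. Not every alternative is listed for all probe sets and for the pathway genes. Over omissions of 1 array the counts ran from 2 to 3 in 786-O, 2 to 4 in PC3, 1 to 1 for the difference, 6 to 6 between the lines alone and 7 to 7 with myoblasts. Repeat numbers did not pair the arrays (r of deviations from -0.115 to 0.121), and the replicate block called 2, 2, 1, 6 and 7 members in the 5 comparisons. AKR1C1 204151_x_at and AKR1C3 kept their PC3 calls throughout. AKR1C3 in 786-O lost its call only with the 786-O arrays alone. Over all probe sets the 2203 calls in 786-O became 1155 without a filter, 1336 with the replicate block, 149 with only its arrays and 456 at 0.01, and ran from 715 to 4363 over omissions. The 1085 in PC3 became 508 at 0.01 and ran from 614 to 2269. The 1118 for the difference became 670 without a filter, 693 with the block and 274 at 0.01, and ran from 502 to 2095.
The 9 pathway genes called in 786-O became 5 without a filter, without the intensity trend and with the block, 0 with only the arrays compared and 2 at 0.01. The 4 in PC3 became 2 above the 75th percentile, 7 with 1 probe set per gene, 9 with only the arrays compared and 2 at 0.01. The 3 for the difference became 1 above the 75th percentile and 5 with arrays centred, with 16 added and with 1 probe set per gene. The 73 and 68 between the lines became 46 and 43 above the 75th percentile. Over omissions they ran from 3 to 12 in 786-O, 3 to 10 in PC3, 3 to 7 for the difference, 67 to 77 alone and 63 to 71 with myoblasts. Beyond what fewer tested probe sets or fewer arrays bring by construction, the cause of these changes was not tested. Signals near the floor limit AKR1B10 and AKR1C2 209699_x_at.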

Other observations

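Some AKR1C signals repeated closely across groups, a measure chosen after the values were seen. For AKR1C1 204151_x_at 6 arrays, the 3 of 786-O with myoblasts and the 3 of PC3 alone, lay between 68.6 and 71.7, the highest at most 5% above the lowest. Of probe sets of like signal 11% had as many arrays so close, and the median was 3. For AKR1C2 209699_x_at 6 arrays lay between 25.6 and 26.8, 2 each from 786-O with myoblasts, 786-O alone and PC3 alone, as many as in 18.8% of probe sets of like signal. Closer still, between 26.7 and 26.9, lay repeats 2 and 3 of 786-O with myoblasts, repeat 3 of 786-O alone and all repeats of PC3 alone. The coefficient of variation of 209699_x_at in PC3 alone was 0.147%, and 1.13% of probe sets of like signal had a smaller one. For AKR1C1 204151_x_at in PC3 alone the coefficient was 0.368%, with 1.57% smaller. The median among probe sets of like signal there was 15.4%. How the deposited signals were summarised from the probes was not given, and its part in this was not tested.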
